A study of Mus musculus with 6 samples.

Results

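The 10 genes described here encode enzymes and helper proteins that make coenzyme Q (ubiquinone): Pdss1, Pdss2, Coq2, Coq3, Coq5, Coq6, Coq7, Coq8a, Coq8b and Coq9. Their rows were picked out by symbol, and all 10 were found among the 35410 genes that could be read from the deposited expression table. Expression was measured by RNA sequencing in mouse BMDMs (bone marrow-derived macrophages), obtained by culturing femoral marrow of C57BL/6 mice with macrophage colony-stimulating factor at 10 ng/ml for 7 days. The 3 Ctrl libraries came from cells without zoledronic acid (ZA), and the 3 ZA libraries from cells taken 12 h after ZA was added. The ZA concentration of these libraries is not given in the sources used here, and nothing says that the libraries of a group came from separate animals, so p-values measure the spread between these libraries, which may be technical. BMDMs are a culture model and were not macrophages taken from bone.

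Coenzyme Q is a lipid of the inner mitochondrial membrane that carries electrons from several dehydrogenases to complex III. It is assembled from a ring and a long isoprenoid tail, and the tail is built from farnesyl diphosphate (FPP) and isopentenyl diphosphate, both products of the mevalonate pathway. Nitrogen-containing bisphosphonates such as ZA are known to inhibit farnesyl diphosphate synthase, the enzyme encoded by Fdps, so the design asks how the coenzyme Q genes stood when the enzyme above them was targeted.

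The transcript levels of the 10 genes showed no difference between ZA and Ctrl that passed the test. Fdps and Idi1, which act upstream of the tail, rose, with adjusted p-values just under 0.05. Both lost that call under some other settings of the fit or when some single libraries were left out. The difference between these genes and the members was not tested. Values are FPKM, that is, fragments scaled by the length of the gene and by the size of the library. Library totals lay between 41230600 and 42155808 fragments. Of the 10 members, 8 had a mean of at least 1 FPKM and were tested with limma on log2(FPKM + 1) together with all genes past that filter. With Benjamini-Hochberg adjustment over the 9800 genes, 0 of 8 members had an adjusted p-value under 0.05, beside 0.367% of all genes tested. At an unadjusted p-value under 0.05 the count was also 0 of 8, beside 12.3% of all genes tested. With limma's voom on the recovered fragments the count was again 0 of 8 at either threshold.

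The sequences just before the gene starts are shown for 2 members and for 2 genes that supply FPP, to set windows of the members beside those of genes whose values were higher in every ZA library. They are the 250 bases upstream of a RefSeq start on assembly GRCm38.p6, which is a later build than the mm9 named in the submitters' processing notes, and capitals mark CCAAT and TCACNCCAC on either strand. Coq9 is the member with the highest level, and its window at chr8:94838163-94838412 (plus strand) holds neither motif.
Coq9: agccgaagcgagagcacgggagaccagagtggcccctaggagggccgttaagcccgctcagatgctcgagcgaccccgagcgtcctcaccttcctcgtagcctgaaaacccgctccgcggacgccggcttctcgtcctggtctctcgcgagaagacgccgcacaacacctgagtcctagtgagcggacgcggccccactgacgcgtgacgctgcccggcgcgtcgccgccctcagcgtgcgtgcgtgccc
Coq6 is the member with the lowest p-value, and its window at chr12:84361718-84361967 (plus strand) holds CCAAT 3 times.
Coq6: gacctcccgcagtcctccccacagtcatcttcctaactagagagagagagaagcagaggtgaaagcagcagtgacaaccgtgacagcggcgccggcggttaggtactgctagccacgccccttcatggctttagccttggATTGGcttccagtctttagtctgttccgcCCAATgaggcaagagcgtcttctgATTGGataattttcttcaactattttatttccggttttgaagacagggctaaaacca
Idi1, which rose, has CCAAT 2 times at chr13:8885356-8885605 (plus strand).
Idi1: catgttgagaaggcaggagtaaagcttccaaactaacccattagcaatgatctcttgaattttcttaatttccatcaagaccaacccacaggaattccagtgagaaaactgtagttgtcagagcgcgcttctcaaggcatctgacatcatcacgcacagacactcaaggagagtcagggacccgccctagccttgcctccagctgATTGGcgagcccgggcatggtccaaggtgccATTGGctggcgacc
Hmgcs1, which encodes the synthase of HMG-CoA at the head of the mevalonate pathway, has CCAAT 3 times and TCACNCCAC once at chr13:119690101-119690350 (plus strand).
Hmgcs1: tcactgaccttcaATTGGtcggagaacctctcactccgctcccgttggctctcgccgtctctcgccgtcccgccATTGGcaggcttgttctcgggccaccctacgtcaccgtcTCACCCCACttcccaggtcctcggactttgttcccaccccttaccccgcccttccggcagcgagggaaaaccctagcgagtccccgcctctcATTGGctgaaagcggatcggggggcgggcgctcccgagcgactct

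TCACNCCAC is the form of the sterol regulatory element searched for here, and it was present in 1.05% of all 32851 upstream windows. Of the members, 8 matched a RefSeq entry, with 10 windows in all, and 0 of these windows held TCACNCCAC. The FPP supply list, which also holds Ggps1, matched 7 genes with 8 windows, and 1 window held it, that of Hmgcs1. Fdps was not among these 7 genes, so no window of Fdps was searched for any motif. CCAAT, the core of the binding site of nuclear factor Y, was found in 3 of 10 member windows (of Coq6, Coq7 and Coq8a) and in 6 of 8 windows of the supply list (that of Ggps1 included), beside 33.8% of all windows. GGGCGG, the core of the binding site of Sp1, was found in 5 of 10 member windows and 5 of 8 windows of the supply list, beside 32.7% of all windows, and in Coq6 it shares bases with one of the former motif. The E-box CACGTG was found in 0 of 10 and 0 of 8 windows, beside 6.02% of all windows. These matches describe letters in the windows and were not tested.

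The members differed in level by a factor of 52.8 between the highest and the lowest mean over the 6 libraries. Coq9 was highest, with a mean of 17.5 FPKM, followed by Coq5 at 10.99 and Coq2 at 6.35. Coq6 (4.19), Coq7 (3.91) and Coq8b (3.65) formed the middle of the order, and Coq8a (1.92) and Coq3 (1.76) followed. Pdss2 at 0.914 and Pdss1 at 0.332, which together encode the enzyme that builds the tail, were the lowest on this scale. In 3 of the 9 neighbouring pairs of this order the ranges over the 6 libraries overlapped, namely Coq6 with Coq7, Coq7 with Coq8b, and Coq8a with Coq3, so those neighbours could not be ordered. The lowest value of each other member was above the highest value of the member next below it.

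**Figure D1:**
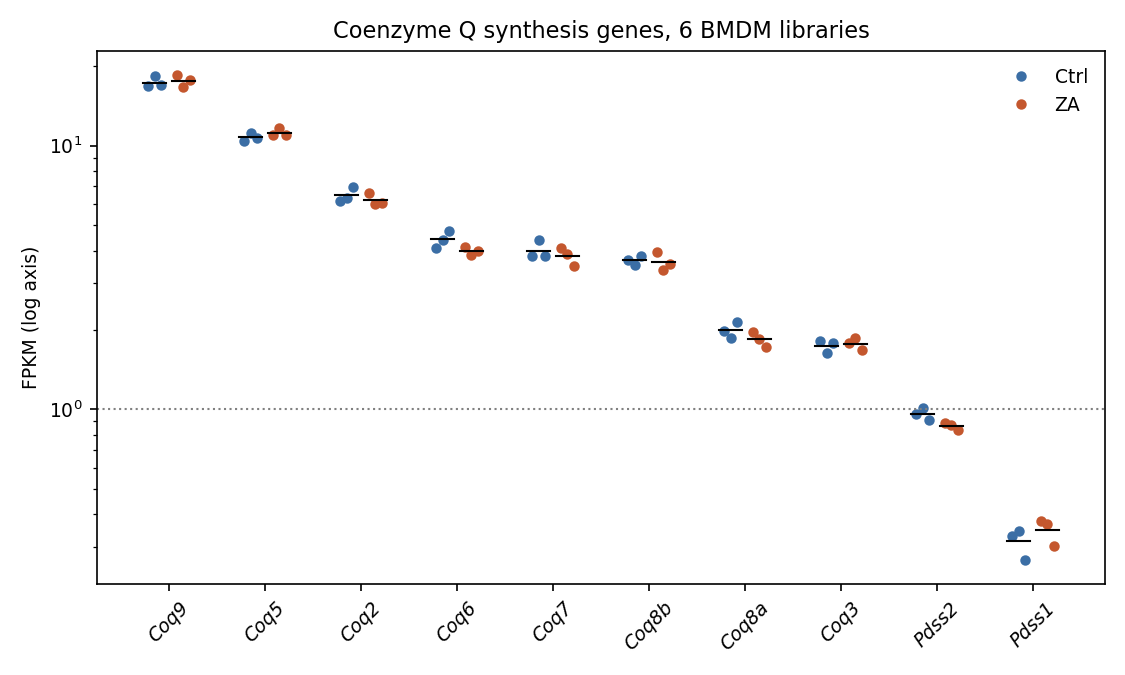
FPKM (log axis) of the 10 members in 3 Ctrl libraries (blue points) and 3 ZA libraries (orange points), with a black line at each group mean and a dotted line at the filter of 1 FPKM. Coq9 was near 17.5 and Pdss1 near 0.332, and the groups of 9 of 10 members overlapped. Those of Pdss2 were apart with ZA lower, the case for 5.63% of genes in the fit without a filter.

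The order depends on the gene length behind each value. The length recovered from the FPKM of Pdss1 was 4720 bases, against 1642 bases for its main transcript in the GENCODE vM21 annotation, a ratio of 2.87. The ratio was 2.79 for Pdss2, 2.59 for Coq8b and 2.16 for Coq2, but 0.949 for Coq9, 0.986 for Coq5 and 0.947 for Coq6. On the scale of fragments per kilobase of the main transcript, chosen after the data had been seen, Coq9 was still first at 16.6 and Pdss1 still last at 0.953, and the factor between them was 17.4. Coq2 (13.7) then stood above Coq5 (10.8), and Coq8b (9.45) above Coq7 (7.18) and Coq6 (3.97). For Coq2, Coq3, Coq8b and Pdss1 the recovered length was above even all exons in the GENCODE annotation together (Coq2: 3762 against 2624 bases). Their fragments were thus counted over another gene model, so their place on this scale is uncertain. Pdss2 (2.55) had a higher mean than Coq8a (2.17) on this scale, with ranges over the libraries, 2.33 to 2.83 and 1.94 to 2.43, that overlap.

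The tail is built by a complex of the Pdss1 and Pdss2 products. Pdss1 had 0.330, 0.347 and 0.269 FPKM in Ctrl and 0.375, 0.367 and 0.302 in ZA, which overlap, and these values rest on 53 to 73 fragments per library. Pdss2 had 0.962, 1.013 and 0.911 FPKM in Ctrl (0.962 ± 0.0508, SD, n = 3) and 0.890, 0.875 and 0.835 in ZA (0.867 ± 0.0286, SD, n = 3). The highest ZA library was below the lowest Ctrl library, on 209 to 250 fragments per library. Both genes were under the filter. In the limma fit without a filter, over 19356 genes, the log2 fold change of Pdss2 on the log2(FPKM + 1) scale was -0.07 with a 95% interval from -0.16 to 0.02 and an adjusted p-value of 0.63, and that of Pdss1 was 0.04 with an interval from -0.05 to 0.12 and an adjusted p-value of 0.80. Groups that do not overlap, with ZA lower, were seen in 5.63% of those genes. Added 1 understates changes at such low levels, and voom without a filter gave Pdss2 -0.15 (95% interval -0.39 to 0.09) and Pdss1 0.14 (-0.33 to 0.61).

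The ratio of Pdss1 to Pdss2 FPKM, which compares the 2 subunits within a library, took the values 0.344, 0.342 and 0.295 (Ctrl) and 0.421, 0.419 and 0.361 (ZA). Each ZA library was above each Ctrl library. The means were 0.327 ± 0.0276 and 0.401 ± 0.0342 (SD, n = 3), and the difference of the mean log2 ratios was 0.29. The exact two-sided permutation test gave p = 0.1, the smallest that 3 against 3 libraries can give, so this design could not reach 0.05. With 1 added to each FPKM before the ratio was taken, the difference was 0.11.

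Coq2 encodes the transferase that joins the tail to the ring. It had 6.18, 6.33 and 6.94 FPKM in Ctrl and 6.59, 6.002 and 6.06 in ZA, so that the groups overlap. Its log2 fold change was -0.05 (95% interval -0.17 to 0.07), with an adjusted p-value of 0.725 in limma.

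Coq3, Coq5, Coq6 and Coq7 encode the enzymes that modify the ring. Coq3, an O-methyltransferase, had 1.82, 1.63 and 1.78 FPKM in Ctrl and 1.78, 1.86 and 1.68 in ZA. Coq5, the C-methyltransferase, had 10.5, 11.2 and 10.7 FPKM in Ctrl and 10.98, 11.7 and 10.97 in ZA. The groups of both genes overlap, with log2 fold changes of 0.02 (95% interval -0.10 to 0.13) and 0.05 (-0.04 to 0.14). Coq7, a hydroxylase, had 3.80, 4.38 and 3.80 FPKM in Ctrl and 4.10, 3.86 and 3.49 in ZA, and its log2 fold change was -0.05 (-0.20 to 0.10).

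Coq6, a flavin-dependent monooxygenase of the ring, came closest to the unadjusted threshold. It had 4.10, 4.39 and 4.73 FPKM in Ctrl (4.41 ± 0.316, SD, n = 3) and 4.13, 3.83 and 3.98 in ZA (3.98 ± 0.146, SD, n = 3). Only ZA 1 lay above a Ctrl library, namely Ctrl 1. The log2 fold change was -0.12 (95% interval -0.24 to 0.0026), with an unadjusted p-value of 0.0541 and an adjusted p-value of 0.413 in limma, and the adjusted p-value ranged from 0.35 to 0.637 over the alternatives tried.

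Coq8a and Coq8b encode related atypical kinases that support the synthesis complex. Coq8a had 1.97, 1.86 and 2.14 FPKM in Ctrl and 1.96, 1.85 and 1.72 in ZA, with a log2 fold change of -0.07 (95% interval -0.20 to 0.06). Coq8b had 3.67, 3.52 and 3.82 FPKM in Ctrl and 3.94, 3.38 and 3.56 in ZA, with a log2 fold change of -0.01 (-0.14 to 0.11). The groups of both genes overlap. For Coq8a to Coq8b the Ctrl ratios were 0.539, 0.527 and 0.561, and the ZA ratios, 0.498, 0.548 and 0.482, also overlap them. The difference of the mean log2 ratios was -0.09, with p = 0.3 in the exact two-sided permutation test.

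**Figure D2:**
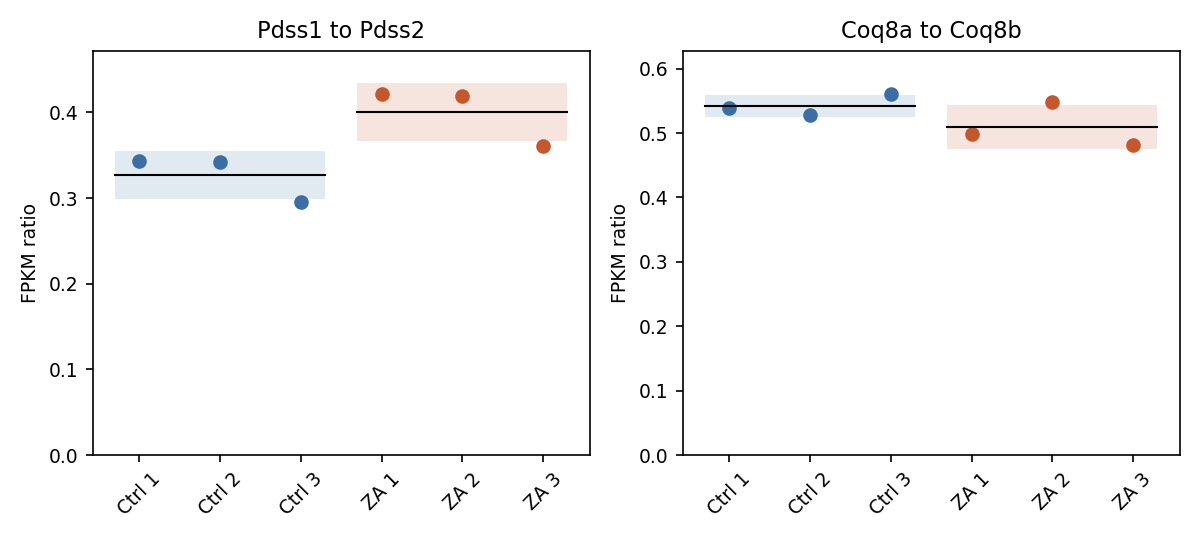
FPKM ratio of Pdss1 to Pdss2 (left) and of Coq8a to Coq8b (right) in each library, with lines at group means and bands of 1 SD (n = 3). The ZA values of Pdss1 to Pdss2, from 0.361 to 0.421, were all above the Ctrl values, from 0.295 to 0.344, while those of Coq8a to Coq8b overlapped.

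Coq9 encodes a lipid-binding partner of the Coq7 hydroxylase. It had 16.8, 18.3 and 16.9 FPKM in Ctrl and 18.5, 16.7 and 17.7 in ZA, on 1176 to 1297 fragments per library. The groups overlap, and the log2 fold change was 0.02 (95% interval -0.09 to 0.13), with an adjusted p-value of 0.875 in limma.

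In 0 of the 8 members tested were the groups apart, beside 18.1% of all genes tested. Of these 8, 3 had a positive and 5 a negative log2 fold change, and the median was -0.03, beside 0.01 over all genes tested. The median size of the change, without its sign, was 0.05 in the members and 0.04 over all genes tested. All 8 intervals lay between -0.24 and 0.14 on the log2(FPKM + 1) scale, and between -0.35 and 0.22 in voom. A p-value that misses the threshold does not show equal levels, and these intervals give the changes that the libraries still allow.

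**Figure D3:**
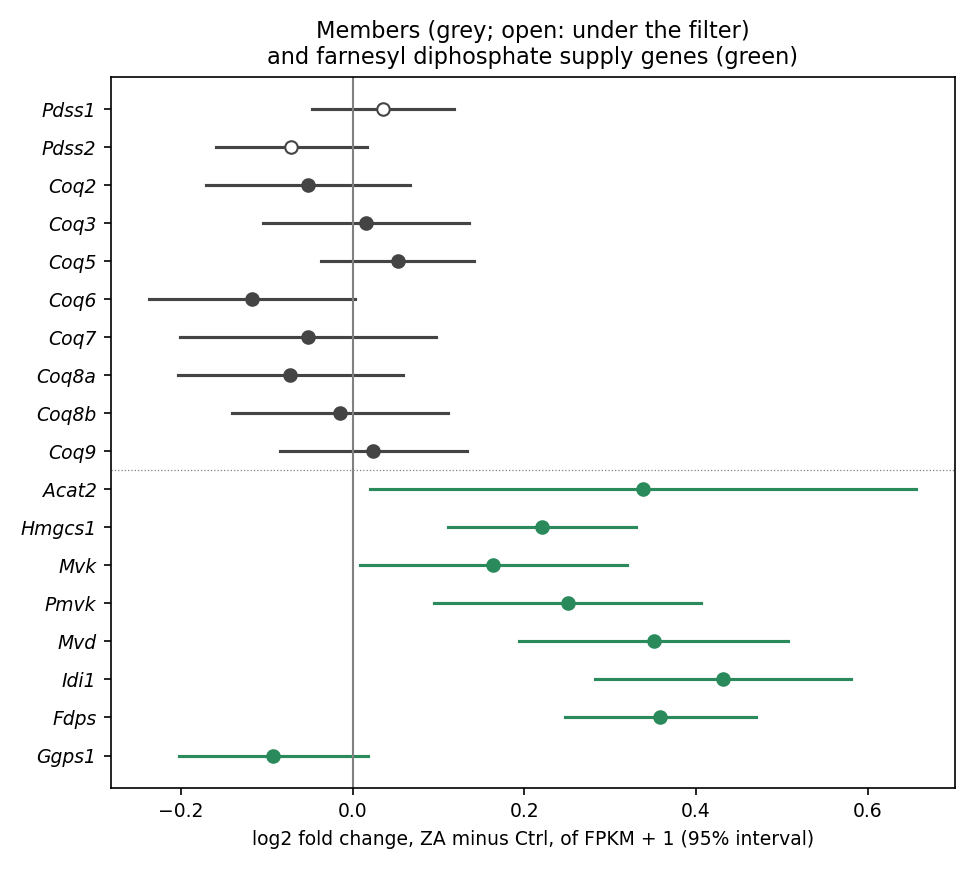
log2 fold change of FPKM + 1, ZA minus Ctrl, with 95% limma intervals, for the 10 members (grey, open symbols from the fit without a filter) and 8 genes of the farnesyl diphosphate supply list (green, Ggps1 last, with a gene that is not reported left out). The members sit between -0.12 and 0.05 with intervals that all include 0, and Fdps is at 0.36 and Idi1 at 0.43.

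The spread of each member over the 6 libraries was set beside the error that counting fragments gives by itself. For Pdss1 the coefficient of variation (CV) was 12.2%, against 12.4% from counting alone. For Coq3 it was 4.94% against 5.64%. In the other 8 members the spread was above the counting error, with the widest gap in absolute terms in Coq2, at 5.64% against 3.17%. The spread over 6 libraries includes any difference between groups. Within Ctrl and within ZA, Pdss2 had 5.28% and 3.30%, under its counting error of 6.65%. Coq6 was under its counting error in ZA, at 3.68% against 5.84%, but not in Ctrl. The rest of those 8 were above it in both groups. The 6 libraries also did not part by group when the 8 tested members were standardised and averaged. Ctrl 3 (0.518) and ZA 1 (0.546) were highest, and ZA 3 (-0.671) was lowest.

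**Figure D4:**
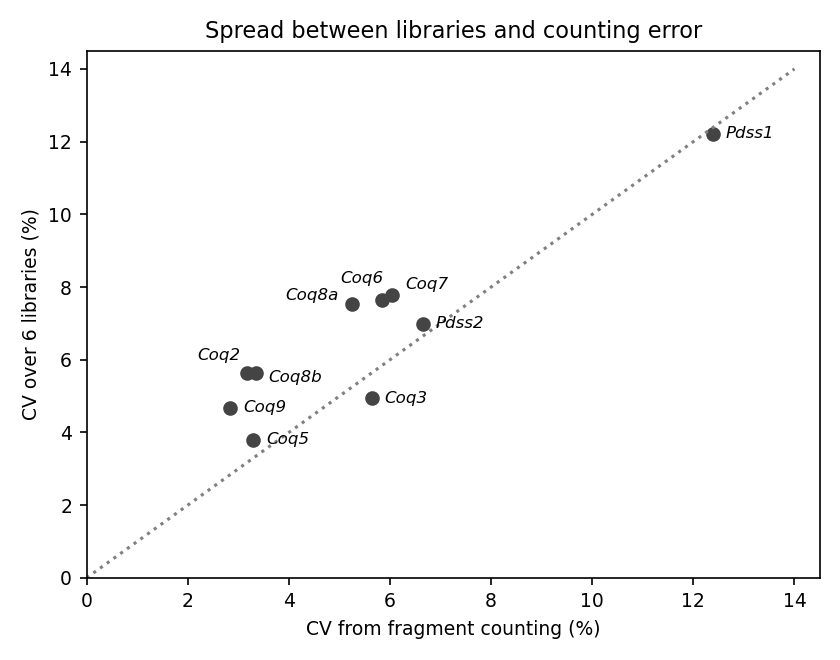
CV of FPKM over the 6 libraries (vertical, %) against the CV expected from the mean fragment number (horizontal, %) for each member, with a dotted line where they are equal. Pdss1 lies at 12.4% and 12.2%, and Coq9 at 2.84% and 4.68%.

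The genes that supply FPP were compared in the same fit, and the difference between this list and the members was not tested. Fdps had 30.9, 30.2 and 30.4 FPKM in Ctrl and 37.3, 38.2 and 42.8 in ZA, and it rose by 0.36 (95% interval 0.25 to 0.47, adjusted p = 0.0453 in limma). Idi1, the isomerase of isopentenyl diphosphate, had 5.92, 5.65 and 6.55 FPKM in Ctrl and 8.41, 7.86 and 9.23 in ZA. It rose by 0.43 (0.28 to 0.58, adjusted p = 0.0487 in limma). The groups of both genes were apart. The list holds 9 genes, among them Ggps1, which uses FPP and does not supply it. Of the 9 tested, 2 were called higher and 0 lower, beside 0.204% of all genes called higher, and 8 had an unadjusted p-value under 0.05, all higher, beside 7.5% of all genes. In 6 of 9 the ZA libraries were all above the Ctrl libraries, beside 11.4% of all genes, and in 1 of 9, Ggps1, they were all below, beside 6.76%. The median log2 fold change of the list was 0.25. Fdps lost its call when any Ctrl library or ZA 2 was left out, with adjusted p-values from 0.101 to 0.2003, and Idi1 lost its call without any 1 of the 6 libraries, with adjusted p-values from 0.0646 to 0.2003. Both also lost it without the filter (0.230 and 0.237) or without the trend (0.0995 and 0.103), and Idi1 after centring (0.0503) or quantile normalization (0.0577). Ggps1, which extends FPP to geranylgeranyl diphosphate, had 3.28, 3.31 and 3.44 FPKM in Ctrl and 2.86, 3.17 and 3.21 in ZA, with a log2 fold change of -0.09 (-0.20 to 0.02).

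The 10 members together summed to 50.1, 53.0 and 52.0 FPKM (Ctrl) and 53.3, 50.4 and 50.3 FPKM (ZA), with means of 51.7 ± 1.48 and 51.3 ± 1.69 (SD, n = 3). Coq9 and Coq5 made up 34.0% and 21.3% of this sum on average. Divided by the FPKM of Fdps in the same library, the sum gave 1.62, 1.75 and 1.71 (Ctrl) and 1.43, 1.32 and 1.18 (ZA). These ratios did not overlap. The difference lay in the divisor, since the sums overlap between groups and the Fdps values do not.

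**Figure D5:**
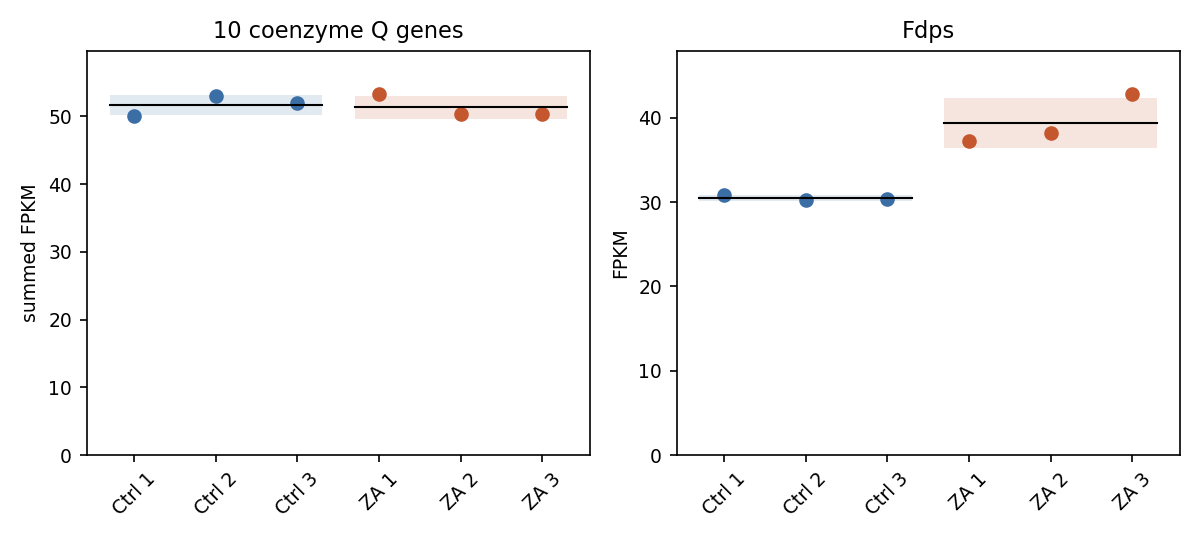
Summed FPKM of the 10 coenzyme Q genes (left) and FPKM of Fdps (right) in each library, with lines at group means and bands of 1 SD (n = 3). The sums lie between 50.1 and 53.3 in both groups, and Fdps lies between 30.2 and 30.9 in Ctrl and between 37.3 and 42.8 in ZA.

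Other genes that act on coenzyme Q were described from lists. Of 10 further genes of its synthesis or handling, 7 were tested and 0 passed the adjusted threshold, beside 0.367% of all genes. Adck5, a kinase-like relative of Coq8a, was the 1 gene of this list with an unadjusted p-value under 0.05 (12.3% of all genes), with 7.84, 8.31 and 7.66 FPKM in Ctrl and 8.86, 9.43 and 8.95 in ZA. Its groups were apart with ZA higher, the case for 1 of the 7 tested, beside 11.4% of all genes tested. The log2 fold change of Adck5 was 0.17 (95% interval 0.08 to 0.27, adjusted p = 0.141 in limma). Coq4, a member of the synthesis complex, had a log2 fold change of 0.05 (-0.13 to 0.24), and Adck2 of 0.02 (-0.09 to 0.12). Hpd had no fragment in any library, which allows up to 3 fragments in each.

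The consumers of FPP and geranylgeranyl diphosphate outside coenzyme Q include squalene synthase and the protein prenyltransferases. Of the 9 tested, 0 passed the adjusted threshold, beside 0.367% of all genes, and 1, Fdft1, had an unadjusted p-value under 0.05, beside 12.3%. Fdft1, which encodes squalene synthase, had 1.93, 1.99 and 1.98 FPKM in Ctrl and 2.29, 2.51 and 2.60 in ZA, with a log2 fold change of 0.22 (95% interval 0.11 to 0.34, adjusted p = 0.113 in limma). Its groups were apart with ZA higher, the case for 3 of the 9 tested, beside 11.4% of all genes tested. Fdft1 was called by voom, with a log2 fold change of 0.33 and an adjusted p-value of 0.0192, against 0.0852 to 0.317 over the other alternatives. Fnta, a shared subunit of the farnesyl and geranylgeranyl transferases, had a log2 fold change of 0.06 (-0.01 to 0.12). Dhdds, of dolichol synthesis, had 0.05 (-0.02 to 0.12).

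Of 22 genes listed for the reduction or oxidation of coenzyme Q, 21 were tested and 0 passed the adjusted threshold, beside 0.367% of all genes. No subunit of complex I is in this list, so that complex was not covered. A positive log2 fold change was seen in 10 of 21, beside 5579 of 9800 genes, and after centring on the median in 6, beside 4740. The 2 with an unadjusted p-value under 0.05, beside 12.3% of all genes, were Uqcrfs1, the Rieske subunit of complex III, at 0.09 (95% interval 0.03 to 0.14, adjusted p = 0.221 in limma), and Sqor, the sulfide oxidoreductase, at 0.08 (0.0017 to 0.16, adjusted p = 0.397). Uqcrq, another complex III subunit, had -0.07 (-0.15 to 0.01). The median of the list was -0.0010.

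Macrophage markers were at high levels in all 6 libraries, where the 8 markers summed to 23609 to 27519 FPKM (Ctrl) and 24498 to 28005 FPKM (ZA), most of it Lyz2. In 4 of the 8, Adgre1, Csf1r, Cd68 and Cd14, every ZA library was above every Ctrl library, beside 11.4% of all genes tested. Adgre1 was at 526 to 538 FPKM in Ctrl and 567 to 593 in ZA (adjusted p = 0.0785 in limma), and Csf1r at 767 to 777 and 825 to 848 (adjusted p = 0.0701). Neutrophil and progenitor markers summed to 32.5 to 47.5 FPKM in Ctrl and 29.4 to 34.4 in ZA, with Ly6g at 0 in all libraries. In 3 of these 8, Ngp, Mpo and Elane, every ZA library was below every Ctrl library, beside 6.76% of all genes tested. Mpo was at 2.28 to 2.64 FPKM in Ctrl and 1.53 to 2.03 in ZA. Stromal markers summed to 13.2 to 22.8 FPKM in Ctrl and 11.7 to 16.02 in ZA. Osteoclast markers summed to 40.3 to 46.8 and 38.6 to 42.4 FPKM, and erythroid markers to 0.380 to 2.61 and 0.777 to 1.82. Dendritic cell markers summed to 0.131 to 0.158 FPKM in Ctrl and 0.234 to 0.295 in ZA. Of these 4 markers 0 were tested. Zbtb46 and Cd209a, whose groups were apart with ZA higher, rest on 5 to 15 and 3 to 10 fragments per library. That was the case for 11.4% of all genes tested, a share that leaves out genes under the filter, such as these. B cell markers summed to 0.409 to 0.773 FPKM in Ctrl and 0.245 to 0.484 in ZA. T cell markers, 2 of 3 being in the table, summed to 0.0159 to 0.0948 and 0.0470 to 0.0953. Of the markers tested, 0 passed the adjusted threshold. The part of these levels in the values above was not tested, and in these bulk samples fewer cells of a type and less RNA per cell cannot be told apart.

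Reads at some members can also belong to neighbours, and the strand setting of the counting is not given in the sources used here. Exons of Coq8b share 455 bases with Gm15567 on the opposite strand (8.15% of its exon bases), those of Coq8a 366 bases with Cdc42bpa (6.91%), those of Pdss1 207 bases with A130006I12Rik (4.87%), and those of Coq6 128 bases with Fam161b (4.07%). Coq9 shares 38 bases with Ciapin1 on the opposite strand (1.24%). Pdss2 shares 33 bases with Gm47856 on the same strand (0.553%), which a strand setting would not separate. In 9 of 10 members no stretch of 150 bases occurred in another gene's transcripts, and in Coq8b 0.155% of the stretches did.

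The 3 genes most like the averaged members over the 6 libraries, by Pearson's r of log2(FPKM + 1), were E2f6 (0.995), Msh6 (0.992) and 1810037I17Rik (0.984). With 6 libraries and 9792 candidate genes such values are a description of these libraries.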

How the data were processed

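The deposited FPKM table, made by the authors with one value per gene and library, had lost its separators in nearly all rows. Rows were restored from the rule that an FPKM is a whole number of fragments scaled by gene length and library total. Of 35434 rows, 35410 were restored, 24 with more than 1 reading were left out, and 11 of 11 intact rows came out identical. The aligner, counting program and annotation are not given in the sources used here, and the submitters' processing notes name mm9. The labels name 2 library kits. Fragments were recovered from the FPKM and used for voom only. All 6 value columns were used.

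log2(FPKM + 1) was compared with limma 3.58.1 in R 4.3.3 (lmFit, eBayes with a trend, two-sided, Benjamini-Hochberg over the 9800 genes whose mean FPKM was 1 or more). Ratios were compared by exact permutation (SciPy 1.17.1). The scripts were tested on simulated data. Members and lists were chosen with earlier results of these data known. Named genes are all members, in each other list the 3 with the highest absolute limma t, Fdps, and the 3 most alike genes. A gene under this rule is not reported here. Ggps1, Hmgcs1 and Hpd were added after values were seen. Promoters and lengths came from RefSeq (GRCm38.p6) and GENCODE vM21, not from mm9. Libraries of one group differed by more than sampling noise, with a chi-square per gene from 3.52 to 9.73. Alternatives were another pseudocount, filters, scalings, a variance prior without a trend, a replicate block, voom, and leaving out each library.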

Additional observations from a re-analysis of the deposited data

How the results depend on the processing

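Over 14 alternatives 0 members passed the adjusted threshold in each, and of 131 member values 125 kept their direction. Other filters, the variance prior without a trend and the replicate block leave each log2 fold change as it was. Values from these settings are among the 125 and could not have turned. The 6 that turned did so when 1 library was left out, with ranges from -0.014 to 0.040 for Coq3, -0.094 to 0.0026 for Coq7, -0.063 to 0.024 for Coq8b and -0.010 to 0.062 for Coq9. Coq4 (-0.021 to 0.10) and Adck2 (-0.020 to 0.047) turned likewise. The count of members at an unadjusted p-value under 0.05 was 1, namely Coq6, after centring on the median, after quantile normalization (1) and with a variance prior without a trend (1), and ranged from 0 to 1 when a library was left out. These counts leave out Pdss2, which was under the filter and had an unadjusted p-value of 0.0282 without the trend and 0.0470 without Ctrl 3, in fits without a filter (adjusted 0.447 and 0.516).

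The count over all genes, 36, was 1 without the filter, 20 after quantile normalization, 1 without the trend and 132 in voom, and 0 to 25 when a library was left out. The FPP supply count, 2, was 0 without the filter, 1 after centring, 1 after quantile normalization, 0 without the trend and 5 in voom, and 0 to 1 when a library was left out. The FPP consumer count was 1 in voom. The cause was not tested.

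A fit with a replicate block called 78 genes, 2 supply genes and 0 members. Deviations from the group means, over 9800 genes, had correlations of 0.284, 0.0393 and 0.28 between same-numbered libraries. Libraries with different numbers were not compared in this way, so these values cannot decide whether the numbers mark pairs. The main fit did not use the numbers. The blocked log2 difference was 0.29 for Pdss1 to Pdss2 and -0.09 for Coq8a to Coq8b, as without a block. With 3 complete pairs these differences are equal by arithmetic. The smallest p that 3 pairs can give is 0.25. Per main transcript, the factor between the highest and lowest member was 17.4 in place of 52.8. At 53 to 73 fragments, Pdss1 is limited by depth.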
